A study of Arabidopsis thaliana with 4 samples.

Results

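The 10 genes described here encode enzymes that make or break down abscisic acid (ABA). The data are peaks called in the Arabidopsis genome from anti-GFP chromatin precipitates of plants with a GFP fusion of the NAC transcription factor ANAC060. The genes were chosen by locus from the pathway. The synthesis genes were NCED3 (AT3G14440), NCED5 (AT1G30100), NCED6 (AT3G24220), NCED9 (AT1G78390), ABA2 (AT1G52340) and AAO3 (AT2G27150). The breakdown genes were CYP707A1 (AT4G19230), CYP707A2 (AT2G29090), CYP707A3 (AT5G45340) and CYP707A4 (AT3G19270). They are 10 of 27444 nuclear protein-coding genes in the annotation used. A gene was counted as carrying a peak where a deposited peak overlapped its body or the 1 kb on either side by at least 1 bp.

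Chromatin came from whole 10-day-old seedlings of the Columbia (Col-0) ecotype. The precipitated line was 35S:ANAC060-GFP/anac060, in which a constitutive viral promoter drives ANAC060 fused to green fluorescent protein in a mutant of the gene, so the fusion is not limited to the cells where ANAC060 is normally active. The series held 4 libraries: 1 anti-GFP precipitate and 1 wild-type input taken without antibody from seedlings with 6% glucose, and the same pair without glucose. The labels also name 6% sorbitol without saying which seedlings received it. Each treatment gave 1 peak list, of 2859 peaks with glucose and 4155 without. With 1 library per group there is no replicate check, no test was made between treatments, and precipitates of untagged plants were not used here. Read depth was unknown.

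ABA is made from carotenoids. NCED enzymes cleave epoxycarotenoids in the plastid, the step generally taken as rate-limiting, ABA2 turns the product xanthoxin into abscisic aldehyde in the cytosol, and AAO3 oxidises the aldehyde to ABA. CYP707A cytochrome P450 enzymes hydroxylate ABA and so start its main route of breakdown. Sugar and ABA are linked in seedlings: mutants of ABA2, also named GIN1, were found as plants that grow on glucose levels that arrest the wild type.

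Peaks were found at 6 of the 10 genes, and 2 genes, NCED6 and CYP707A1, had one in both treatments. In the glucose list 3 of 10 genes carried a peak (NCED6, NCED9 and CYP707A1), where 18.1% of all protein-coding genes did. In the no-glucose list 5 of 10 did (NCED3, NCED6, ABA2, CYP707A1 and CYP707A3), where the share of all genes was 25.5%. With a score of 100 or more asked of both lists, NCED6 was the 1 member left with a glucose peak, beside 4.93% of all genes. Of all genes, 13.9% carried a peak in both lists as deposited, 4.25% with glucose alone and 11.6% without glucose alone. NCED9 was the member of the glucose list alone, and NCED3, ABA2 and CYP707A3 were those of the no-glucose list alone. AAO3, NCED5, CYP707A2 and CYP707A4 carried none, like 70.3% of all genes. By role, 4 of 6 synthesis genes and 2 of 4 breakdown genes had a peak in either list, where 29.7% of all genes did. The 4 include ABA2, whose peaks also lay near other genes. So few genes allow no reading against that share.

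**Figure D1:**
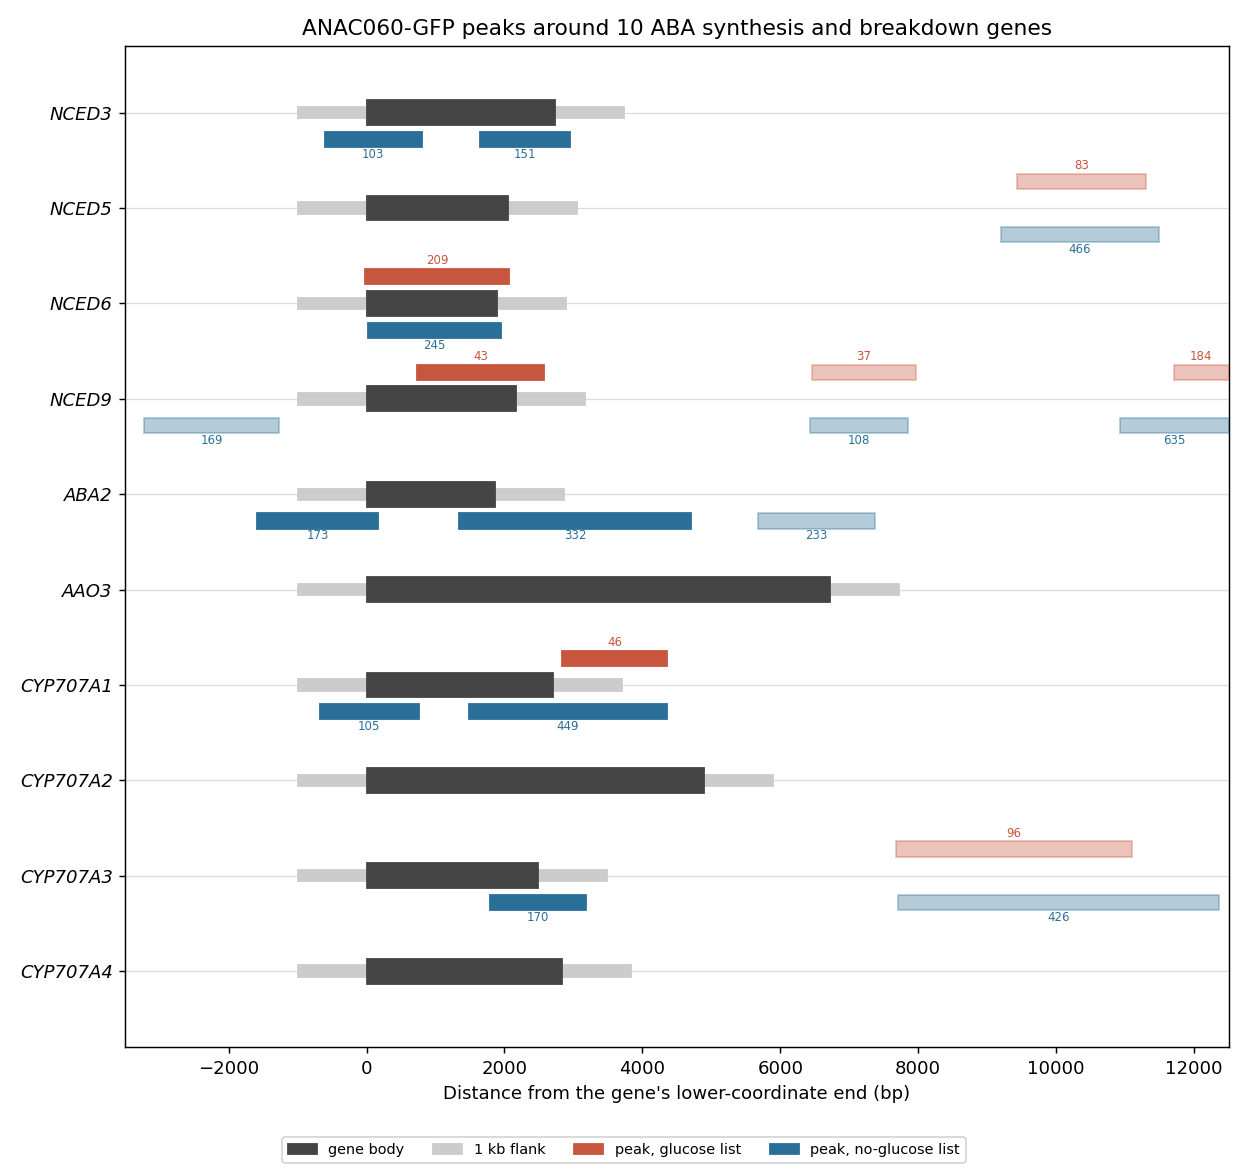
Peaks around the 10 genes. The x axis is the distance in bp from the lower-coordinate end of each gene, dark bars are gene bodies, light grey bars the 1 kb flanks, red bars peaks of the glucose list and blue bars peaks of the no-glucose list, each with its score. Pale bars lie outside the 1 kb limit, and bars that run past the edge of the plot are cut there. NCED6 is covered in both lists, and NCED3, ABA2 and CYP707A1 have a no-glucose peak at each end.

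The 11 peaks at these genes lay on both sides of the list medians and well below the highest scores. Strength is given as the score that the authors' MACS peak caller assigned, which was ranked within a list and not compared between lists, since glucose scores start at 30.02 and no-glucose scores at 100.01. The 3 glucose peaks scored 209.18 (NCED6), 46.45 (CYP707A1) and 43.48 (NCED9), beside a median of 57.65 over that list, so 1 of 3 lay above the median. The 8 no-glucose peaks scored from 103.2 to 449.44, beside a list median of 180.05, and 3 of 8 lay above it. Each list reached 3100 at its highest peaks.

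**Figure D2:**
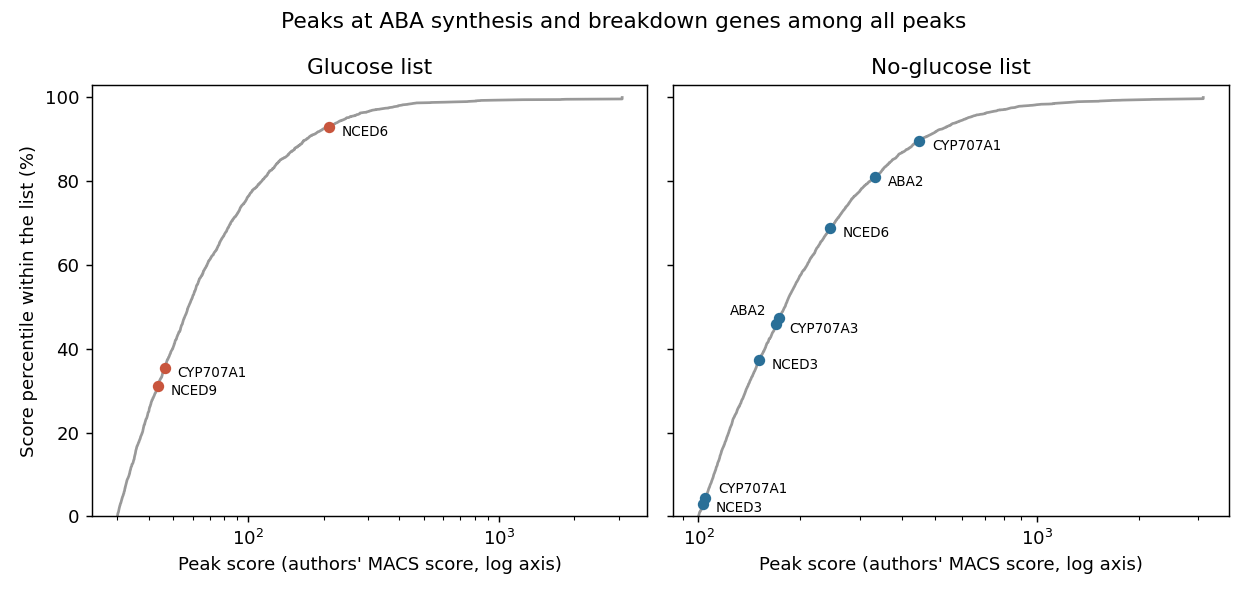
Score of each member's peaks among all peaks of the same list. The x axis is the authors' score on a log axis, the y axis the percent of peaks in that list at or below the score, the grey line all peaks and the points the peaks at the named genes. NCED6 ranks highest of the 3 glucose points, and CYP707A1 and ABA2 rank highest of the 8 no-glucose points.

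NCED6 is the synthesis gene with the best-ranked glucose peak. It encodes an NCED enzyme known mainly from seeds, where it acts in the endosperm. In the glucose list its peak (chromosome 3, 8761403 to 8763483, TAIR10) scored 209.18 and ranked 202 of 2859. Without glucose the peak (8761444 to 8763374) scored 245.29 and ranked 1298 of 4155. The position was nearly the same in both, with centres 34 bp apart, and the overlap made up 92.8% of the glucose peak and 100% of the no-glucose peak.

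The NCED6 peaks had almost the outline of the gene. With glucose the peak began 16 bp before the annotated gene, ended 180 bp after it and covered 100% of its body. Without glucose it covered 98.7% and ended 71 bp past the gene. Single peaks that cover 95% or more of a gene were uncommon: of genes of 1500 to 2500 bp with a peak, 7.25% had one with glucose and 7.16% without, and the median cover was 32.2% and 32.0%. Those shares include genes longer than NCED6, which spans 1885 bp, and genes with a peak in the flank alone. The 95% limit and the length range were not among the planned comparisons. The NCED6 peaks were 2081 and 1931 bp wide, at the 71.0th and 56.8th percentiles of width in their lists. List median widths were 1673 and 1784 bp. No test was made. No other protein-coding gene lay within 1 kb of either NCED6 peak.

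NCED3 is the NCED gene best known for drought-induced ABA synthesis in leaves and roots. It had no glucose peak, and the nearest one lay 27926 bp away. Without glucose it had 2 peaks, both low in the list. The one over its lower-coordinate end (chromosome 3, 4830683 to 4832086, TAIR10) scored 103.2 and ranked 4038 of 4155. The one over its higher-coordinate end (4832932 to 4834237) scored 151.4 and ranked 2604. The first scored only just above the 100.01 at which the list begins. A stretch of 845 bp between them, 31.0% of the gene, was outside both peaks.

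NCED9, like NCED6 known from seeds, was the reverse case. Its glucose peak (chromosome 1, 29491432 to 29493280, TAIR10) scored 43.48, ranked 1972 of 2859 and covered 66.5% of the gene. That score is below the lowest score of the no-glucose list, so a peak of the same score would not have been listed there. The nearest no-glucose peak lay 1271 bp outside the gene at the opposite end and scored 169.17. It was the peak nearest to the 1 kb limit from outside, and with 2 kb flanks it put NCED9 in both lists. NCED5, the remaining NCED member, lay 7384 bp from its nearest glucose peak, of score 83.25, and 7147 bp from its nearest no-glucose peak, of score 466.31.

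ABA2 had 2 no-glucose peaks and none with glucose. The peak at the higher-coordinate end (chromosome 1, 19491137 to 19494502, TAIR10) scored 331.99 and ranked 787 of 4155. It was 3366 bp wide, the widest of the 11 peaks at these genes, and reached 2852 bp past ABA2. Only 15.3% of it lay in ABA2, and AT1G52342 and AT1G52343 were also within 1 kb of it. The peak at the lower-coordinate end (19488202 to 19489961) scored 172.61, ranked 2193 and lay within 1 kb of 3 other genes, AT1G52320, AT1G52325 and AT1G52330. Neither centre fell in ABA2: they lay 713 bp below and 1169 bp above it. These peaks therefore cannot be given to ABA2 rather than to its neighbours. The nearest glucose peak was 4270 bp away and scored 31.2.

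AAO3, the aldehyde oxidase gene of the last step, was the longest member at 6724 bp and had no peak. The nearest lay 11681 bp away in the glucose list and 11129 bp in the no-glucose list. Over all protein-coding genes the median distance to the nearest peak was 11303 and 6406.5 bp. Among genes over 4 kb, 20.2% carried a glucose peak and 28.8% a no-glucose peak.

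CYP707A1 was the breakdown gene with a peak in both lists, and its scores there were 46.45 with glucose and at most 449.44 without. It encodes an ABA hydroxylase active in seedlings and guard cells. Its glucose peak (chromosome 4, 10524092 to 10525623, TAIR10) scored 46.45 and ranked 1845 of 2859. That peak began 131 bp beyond the higher-coordinate end of the gene and did not touch the body. At the same end the no-glucose list had a peak (10522749 to 10525614) with a score of 449.44 and rank 430 of 4155, the highest of all 8 no-glucose peaks at these genes.

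The CYP707A1 peaks at that end stopped at nearly the same position on the outer side and differed on the inner side. The no-glucose peak was 2866 bp wide and reached over 44.9% of the gene body, whereas the glucose peak was 1532 bp wide. The glucose peak lay almost wholly inside it, with 99.4% of its length, and filled 53.1% of it, so that the centres were 676 bp apart. A further no-glucose peak (10520578 to 10522022) lay over the other end, with a score of 104.73 and rank 3978, again close to the lowest score listed. The gap between both no-glucose peaks was 726 bp, 26.9% of the gene. No other protein-coding gene lay within 1 kb of any of the 3 CYP707A1 peaks.

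CYP707A3, known for lowering ABA in vegetative tissue on rehydration, had 1 no-glucose peak (chromosome 5, 18370325 to 18371720, TAIR10). It scored 169.71, ranked 2248 of 4155 and was centred 1 bp past the higher-coordinate end of the gene. The nearest glucose peak lay 5190 bp away and scored 95.62. A no-glucose peak lay at nearly the same place, 5223 bp from the gene, and scored 426.02, so the neighbourhood of CYP707A3 was in both lists and the gene end in one.

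The other 2 breakdown genes had no peak nearby. CYP707A2, known for the fall of ABA in seeds as they take up water, lay 85982 bp from the nearest glucose peak and 50462 bp from the nearest no-glucose peak. Only 6.33% and 6.92% of all protein-coding genes were as far or farther from a peak. CYP707A4 lay 27348 and 27161 bp away, where 27.1% and 15.8% of genes were as far or farther.

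NCED6 and CYP707A1, the genes with a peak in both lists, held different places within them. The NCED6 peak stood at the 93.0th percentile of scores in the glucose list and at the 68.8th in the no-glucose list. The highest CYP707A1 peak stood at the 35.5th and the 89.7th. NCED6 was thus the higher of the pair with glucose, and CYP707A1 the higher without. The lists differ in length and in the score at which they begin, which moves percentiles, so no change of either gene between treatments can be read from these values.

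Peaks at both ends of the gene were a shared feature of NCED3, ABA2 and CYP707A1 in the no-glucose list. In each, the 2 gene ends fell in different peaks, and a middle stretch of 845, 1175 and 726 bp respectively lay in neither. This was the case for 3 of the 5 members with a no-glucose peak, and for 5.68% of the 6988 genes with one. No member showed it in the glucose list, where 4.74% of the 4977 genes with a peak did. Having 2 or more peaks of any position was seen at 11% of genes with a no-glucose peak and at 9.64% of those with a glucose peak. At NCED3 and CYP707A1 it rests on the peaks ranked 4038 and 3978 of 4155. Among the best-scoring 2859 no-glucose peaks, as many as the glucose list holds, ABA2 was the 1 member of 5 left with a peak at each end, beside 4.43% of genes with a peak, and both ABA2 peaks had other genes within 1 kb. The feature was noticed in these data.

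Centres of the no-glucose peaks at these genes lay close to a gene end in most cases. The distance from the centre to the nearer end of the member was 500 bp or less for 5 of 8 peaks, with a median of 325.5 bp. Measured to the nearest end of any protein-coding gene, 7 of 8 lay that close, beside 71.5% of all 4155 no-glucose peaks. By the same measure 0 of the 3 glucose peaks did, beside 70.5% of the glucose list. Both shares are over all peaks, also those far from genes. A member's peak lies near a gene by the way it was chosen, and the 8 no-glucose peaks came from 5 genes. Which end is the start of transcription was not read, since the annotation used gives no strand, and classes of exon, intron and UTR were not analysed here.

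Most of the peaks lay near a single protein-coding gene, which alone does not tie a peak to that gene. For 9 of the 11 the member was the sole protein-coding gene within 1 kb, and the exceptions were the 2 ABA2 peaks. By list these were 3 of 3 glucose peaks and 6 of 8 no-glucose peaks. The 11 peaks came from 6 genes, and peaks of both lists overlapped at NCED6 and CYP707A1, so they are not independent cases. Over whole lists 26.8% of glucose and 28.2% of no-glucose peaks had exactly 1 such gene. Peaks with no gene within 1 kb were kept in those totals, whereas a member's peak has at least 1 by the way it was chosen.

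The rest of the pathway was described with 37 further genes. Of these, 9 had a glucose peak and 15 a no-glucose peak, or 24.3% and 40.5% beside the 18.1% and 25.5% of all genes. These gaps depend on the rule. By gene body alone the glucose share was 16.2% beside 14.3% and the no-glucose share 21.6% beside 20.9%. By peak centre the glucose share was 13.5% beside 13.9% and the no-glucose share 27% beside 19.6%. With a minimum score of 100 the glucose share was 5.41% beside 4.93%, and the no-glucose share could not change. Of 5 genes grouped as other synthesis steps, 2 had a no-glucose peak and none a glucose peak. They were ABA1 (zeaxanthin epoxidase), with a score of 142.3, and NPQ1 (violaxanthin de-epoxidase), with 266.28. The NPQ1 enzyme reverses the ABA1 reaction, so it is not itself a step towards ABA. The NPQ1 peak lay 623 bp outside the gene, with 2 other genes within 1 kb, and the ABA1 peak had 1 other gene there. ABA4, needed to form neoxanthin, and ABA3, the molybdenum cofactor sulfurase gene that AAO3 activity depends on, had no peak.

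Of 11 genes of carotenoid synthesis, grouped as carotenoid precursor, 2 were in the glucose list (18.2%) and 3 in the other (27.3%), close to the 18.1% and 25.5% of all genes. Not all of them lie on the branch that leads to ABA. PSY, the phytoene synthase gene at the entry of the pathway, had one in both lists, with scores of 42.98 and 230.18 at positions outside the gene body. LUT2, the lycopene epsilon-cyclase gene, had a glucose peak of 58.01 alone. That peak was centred 838 bp outside the gene, with 19.8% of its length in it and 2 other genes within 1 kb. BCH1, a beta-carotene hydroxylase gene, and ZDS, a carotene desaturase gene, had no-glucose peaks of 172.79 and 133.76. The BCH1 peak had 2 other genes within 1 kb, and the ZDS peak lay 710 bp outside the gene with 1 other gene within 1 kb.

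Close relatives of the synthesis enzymes were looked at next, of which 7 of 8 had no peak in either list, like 70.3% of all genes. Of the 9 genes of the carotenoid cleavage dioxygenase family, to which the NCED genes belong, 3 had a peak in each list and 4 in either, where 18.1% and 25.5% of all genes had one in the respective list and 29.7% in either. CCD1, which cleaves several carotenoids, was the one among the 8 relatives listed, with scores of 317.33 (rank 86 of 2859) and 138.38 (rank 2897 of 4155). Its glucose peak was 4084 bp wide with 18.8% of its length in CCD1, and 2 other genes lay within 1 kb. Of the 4 aldehyde oxidase genes, AAO3 included, 0 had a peak in either list, beside 29.7% of all genes, and so few genes allow no reading against that share. Both families were counted after the values were seen.

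Of 7 genes that store ABA as its glucose ester or release it, 3 carried a glucose peak and 5 a no-glucose peak, beside 18.1% and 25.5% of all genes. UGT71C5, an ABA glucosyltransferase gene, scored 162.8 with glucose and 221.59 at its higher peak without, each with 2 other genes within 1 kb. UGT71B6, another such gene, scored 52.74 and 254.7. The same pair of peaks lay within 1 kb of AT3G21790, which was counted through it, so these are not independent cases. BGLU10, a beta-glucosidase gene, had a no-glucose peak of 180.88 that lay 21 bp outside the gene, with 1 other gene within 1 kb.

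Of 6 ABA transport genes, 3 carried a glucose peak and 4 a no-glucose peak, beside 18.1% and 25.5% of all genes. Among genes over 4 kb, which all of them but DTX50 are, the shares were 20.2% and 28.8%. The importer gene NPF4.6, also known as the nitrate transporter NRT1:2, scored 31.19 with glucose and 352.04 without, and those peaks lay at different ends of the gene and did not overlap. Its glucose peak ranked 2748 of 2859, just above the 30.02 at which that list begins, and had AT1G69840 within 1 kb. ABCG30 scored 63.17 with glucose and at most 220.62 without, and each of its peaks had ABCG41 or ABCG42 within 1 kb. ABCG31 scored 46.36 and 187.59, at peaks that lay 211 and 117 bp outside the gene. The exporter gene ABCG25 had a no-glucose peak of 116.84, which lay 349 bp outside it. All ABCG31 and ABCG25 peaks had 2 other genes within 1 kb, so they cannot be given to these genes rather than to neighbours. Groups of 4 to 11 genes give coarse shares, and no difference between them was tested.

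**Figure D3:**
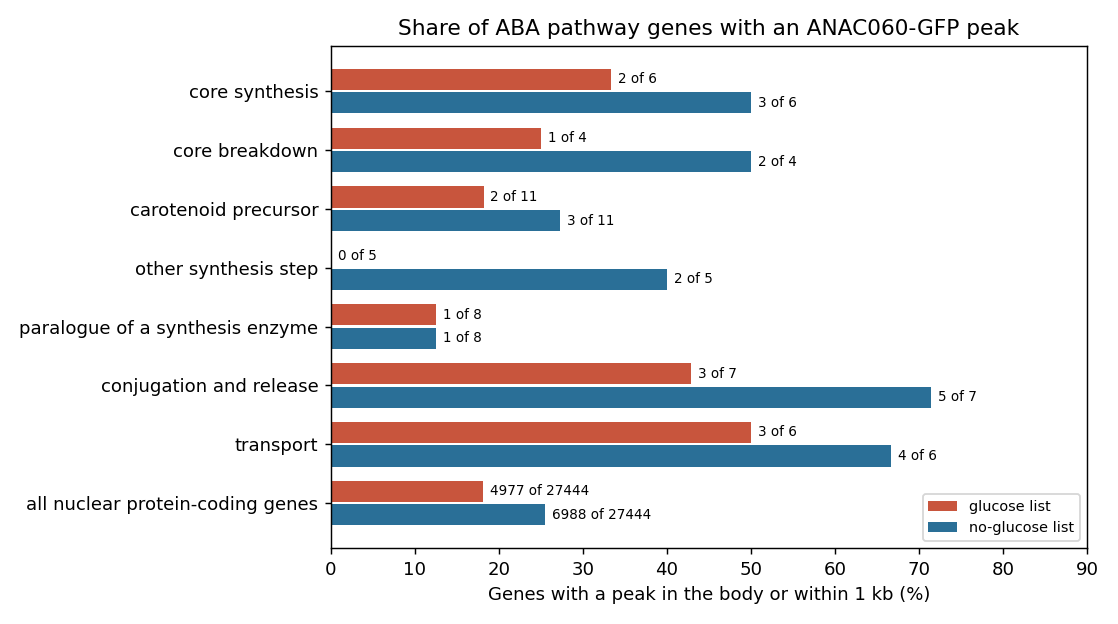
Share of genes with a peak in the gene body or within 1 kb, by step of the pathway. The x axis is the percent of genes, red bars the glucose list and blue bars the no-glucose list, with the counts beside each bar. Synthesis and breakdown members stand at 2 of 6 and 1 of 4 with glucose and at 3 of 6 and 2 of 4 without, and the lowest bars give all 27444 genes.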

How the data were processed

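Per the submitters' processing notes, FastQC and BWA 0.7.15-r1140 were used, on genome build TAIR10. The peak caller was MACS, run without its local background model per the file headers. The header of the glucose file also names a p threshold of 0.001 and no shift model. The MACS version and the no-glucose threshold are not given in the sources used here. A list compares 1 precipitate with 1 input. Column 5 holds the authors' deposited MACS score, used to rank and filter peaks within each list. Peak starts were converted from the deposited BED files to 1-based positions.

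Genes came from the RefSeq table of TAIR10.1, whose positions were checked against the peaks: centres lay a median of 258 bp (glucose) and 255 bp (no glucose) from a gene end, and 611 to 655 bp after moving them by 5 kb. All 10 members and 37 other genes matched by locus. Ranks and percentiles were taken within a list, in Python 3.11.15 with numpy 2.4.6 and pandas 2.3.3, and counting was tested on simulated data. Members and lists were chosen with earlier results of these data known. All members were named, and of each other list up to 4 genes by best percentile. Promoter sequences and the planned motif search were not used here.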

Additional observations from a re-analysis of the deposited data

How the results depend on the processing

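Of 43 alternative counts, 30 stayed within 1.5 times the reported one and 13 did not. Some of the 30 could not have moved, so the tally alone does not measure stability. No-glucose scores start at 100.01, so a minimum score of 100 removed none of those peaks. Equal numbers of peaks trimmed the no-glucose list alone. Leaving out peaks wider than 5 kb removed none at the listed genes, where the widest was 4084 bp. With gene bodies alone, members with a peak in both lists fell from 2 to 1 (NCED6), or 10% beside 10.7% of all genes. The wider genes of the no-glucose list fell from 15 to 8 (21.6%, beside 20.9% of all genes). With peak centres required in the gene or its flank, the wider genes of the glucose list fell from 9 to 5 (13.5%, beside 13.9%). With a minimum score of 100 for both, members were 1 with glucose and 1 in both (NCED6), beside 4.93% and 4.54% of all genes. The wider genes of the glucose list were then 2 (5.41%, beside 4.93%). Among peaks above the median score of their list, members were 1 with glucose, 3 without (ABA2, CYP707A1 and NCED6) and 1 in both. The shares of all genes were 9.91%, 14% and 6.88%. The wider genes were then 4 with glucose (10.8%, beside 9.91%) and 9 without (24.3%, beside 14%). With sharing defined as centres within 250 bp, 1 of 3 member peaks of the glucose list was shared instead of 2. At equal numbers of peaks the members counted were the same 3, 5 and 2, beside 18.1%, 18.5% and 11.7% of all genes, while members with a no-glucose peak at each end fell from 3 to 1 (ABA2), a setting applied to that count after seeing the data. Each of these settings keeps fewer peaks or asks for a closer position. No paired analysis was possible because each group has 1 library. The planned windows for promoter motifs were not run. Absence from a list means a score below its minimum or no call, and depth is unknown.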

Other observations

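Peaks that covered most of a gene were also found at 2 glucosyltransferase genes of the ABA ester branch. At UGT71B6 the glucose peak covered 100% of the gene body and the no-glucose peak 97.8%. These peaks began 511 and 533 bp before the gene, and 75.3% and 74.8% of their length lay in it. At UGT71C5 the cover values were 95.9% and 86.3%. Such cover was not limited to that branch: at BCH1, a carotenoid precursor gene, the no-glucose peak covered 92.7% of the body. Among genes of 1500 to 2500 bp with a peak, also those with one in the flank alone, 7.25% and 7.16% were covered to 95% or more. These genes were picked out after their values were seen, and no test was made.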
